A study of Homo sapiens with 35 samples.

Results

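The 10 genes described here encode the coat known as COPII: SEC23A, SEC23B, SEC24A, SEC24B, SEC24C, SEC24D, SAR1A, SAR1B, SEC13 and SEC31A. They were taken by gene symbol from a table of raw read counts for 60665 genes, and all 10 were found and passed the filter on low counts. SEC23A was chosen by its measured levels, which were low after INTS13 depletion and after TSPYL2 depletion, and the other 9 entered as the rest of the coat. The values of SEC23A in those comparisons are therefore a description and carry no p-value. Other comparisons that use the same control libraries are not independent of that choice, since a high control level of SEC23A favours both the choice and a fall there.

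COPII forms the vesicles that carry newly made proteins out of the endoplasmic reticulum (ER) toward the Golgi. The small GTPase SAR1 binds the ER membrane and recruits the heterodimer of SEC23 and SEC24. SEC23 activates GTP hydrolysis by SAR1, SEC24 picks the cargo, and SEC13 with SEC31 forms the outer cage. Mammals have paralogs of most subunits: mutations of SEC23A are known from cranio-lenticulo-sutural dysplasia, those of SEC23B from congenital dyserythropoietic anemia type II, and those of SAR1B from chylomicron retention disease. SEC13 is also a subunit of the nuclear pore and of the GATOR2 complex.

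Total RNA was sequenced from HEK293T, an established line from human embryonic kidney, in 35 libraries. Cells were transfected with a siPOOL (many small interfering RNAs, all aimed at the same transcript) at 5 nM for 72 h. The second set of libraries, numbered 3 and 4, held INTS13, HDGF and ZNF655 depletion (n = 2 each) and control siPOOL (n = 4). It also held INTS13 depletion, HDGF depletion (n = 2 each) and control siPOOL (n = 4) in cells kept without glucose for 24 h, called starved here. The first set, numbered 1 and 2, held TSPYL2, ZEB1, ZNF608, ZNF609 and ZNF687 depletion (n = 2 each) and control siPOOL (n = 3). The third set held ZMYND8 depletion and the control siPOOL labelled for it (n = 2 each). INTS13 is a subunit of Integrator, a complex that cleaves nascent RNA at many genes, and the question was how the other targets, transcription factors that bind Integrator, relate to it. The sets are a grouping made here from replicate numbers and control names, and no label names a batch. The ZMYND8 libraries and their controls are also numbered 3 and 4, so the labels do not place ZNF655 depletion in the second set. ZNF655 depletion has no control named for it in the labels and was set against the second-set controls. All groups share the cell line and the transfection. The labels do not say whether replicates came from separate cultures, and the p-values reflect only how these libraries vary.

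The libraries held 16.8 to 50.8 M counts each, with a median of 25.6 M, and every member had at least 571 counts in every library. INTS13 transcripts were left at 13.9% of control by its siPOOL and at 18.6% in starved cells, HDGF at 8.4% and the other 7 targets at 32.5 to 56.1%, and each target's depleted libraries all lay below its controls. Of 7 genes typical of HEK293 cells, 6 had at least 1 CPM (counts scaled to a common library size) in every library. Their summed level was 559 to 580 CPM after INTS13 depletion, against 847 to 904 CPM in its controls, 669 to 682 CPM after INTS13 depletion in starved cells, against 834 to 884 CPM in starved controls, and 590 to 635 CPM after TSPYL2 depletion, against 665 to 825 CPM in its controls. Markers of blood cells summed to 0.673 to 2.43 CPM, with CD3E at 0, those of hepatocytes to 0.0693 to 0.714 CPM, and those of fibroblasts to 6.98 to 9.29 CPM after INTS13 depletion and 3.14 to 4.89 CPM in its controls. The sums hide unlike changes of single genes. After INTS13 depletion 1 of the 7 HEK293 genes was called higher and 2 lower, where 12.8% of all genes were called. Their median log2 fold change was 0.45, against 0.01 over all genes. Of 3 tested fibroblast genes 1 was called higher, and their median was -0.61. Fibroblast markers summed to 2.69 to 9.26 CPM in the first-set controls. The part of these markers in the results below was not tested. In the first set, the 6 libraries numbered 1 gave 10.5 to 16.8% of their counts to genes of ribosomal proteins, against 7.51 to 10.2% in the 7 libraries numbered 2, using the numbers in the sample descriptions.

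The start sites of the coat genes are shown first. The promoters are those of RefSeq on GRCh38.p14, 250 bases before to 50 bases after each start, and 9 of the 10 members are in that table. The letters TGACGT, the core of the element bound by CREB and ATF factors, were searched on both strands, as were other motifs named below. They occur in windows of 6 members and in 8.0% of all 35116 windows, which is 9.6% of 27305 genes. Within 10 bases of a start they occur in SEC23A, SEC23B and SAR1A and in 0.84% of all genes, a distance set after these positions had been seen. Each stretch below has 30 bases on the strand of its gene, with the match, or its reverse complement ACGTCA, in capitals.
SEC23A: gtcccctcctctTGACGTggcagaggcggc
SEC23B: ttccgcgagcatACGTCAtcgttctcgctt
SAR1A: cggggaggggtgTGACGTacatccggcgag
SEC24C: gcctgggagcctTGACGTtaggaacgaagt
SEC13: ctctggtctcgcACGTCActggaggatagg
SEC24A: cgtgagagtcggTGACGTggcggcgaggcc
The SEC23A stretch lies at chr14:39103222-39103251 (minus strand), inside the span that the deposited table gives the gene, and its match begins 4 bases before the RefSeq start. That of SAR1A, at chr10:70170501-70170530 (minus), also begins 4 bases before the start, and that of SEC23B, at chr20:18507538-18507567 (plus), begins at base 3 after it. The match of SEC24C (chr10:73744387-73744416, plus) begins at base 28 after the start. That of SEC13 (chr3:10321237-10321266, minus) begins 142 bases before its start, and that of SEC24A (chr5:134648594-134648623, plus) 179 bases before. The windows of SEC24B, SAR1B and SEC31A hold no match in either direction. The SAR1B window (chr5:134632779-134633078) lies well inside the span that the deposited table gives the gene, chr5:134601149-134649271 on the minus strand. Bases around that deposited start of SAR1B were not searched. The match of SEC24A also lies inside this span. Of the other motifs, CCGGAA, the core bound by ETS factors, occurs in windows of every member in the table but SEC24B. It occurs in 17.2% of all windows. The CCAAT box occurs for SEC31A, SAR1B and SEC23B (34.6% of all windows). The E-box CACCTG occurs for SEC31A, SEC24B, SEC24A and SEC23B (20.6% of all windows). A match is a run of letters, and binding was not measured. Any part of these letters in the changes below was not tested.

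The levels of the members can be set against each other only per length, here as CPM per kilobase (kb) of annotated exon. In the second-set controls SEC13 (31.7 ± 0.218 CPM per kb, SD, n = 4), SAR1A (30.9 ± 2.61), SEC23A (28.1 ± 1.27), SEC24C (28.0 ± 1.34) and SEC23B (26.4 ± 1.54) stood highest, and neighbours in that order overlapped between libraries. SEC31A followed at 18.6 ± 1.48 CPM per kb, then SEC24B at 11.4 ± 0.405, SAR1B at 10.1 ± 0.744, SEC24A at 8.28 ± 0.327 and SEC24D at 4.33 ± 0.476, with no overlap from 1 step to the next. In the first-set controls SEC23A led with 35.9 ± 1.77 CPM per kb (n = 3), above SEC13 with 32.2 ± 2.78, whose libraries touched its range. The 2 SEC23 genes thus had close levels in control cells, SAR1A exceeded SAR1B, and SEC24C was the highest of the 4 SEC24 genes. The exon length joins all annotated transcripts, so a gene with rarely used exons is set too low on this scale.

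INTS13 depletion lowered SEC23A, SEC23B and SAR1A, and SEC13 slightly. The SEC24 genes, SAR1B and SEC31A did not pass the test. SEC23A, which encodes the GTPase-activating subunit, had 84.9 and 85.4 CPM in INTS13-depleted cells, against 234, 251, 256 and 235 CPM in control cells. Both depleted libraries were far below every control library. The log2 fold change was -1.52 ± 0.07 (SE), which leaves 34.9% of control. The gene (ENSG00000100934.15) spans chr14:39031919-39109646 on the minus strand of hg38 in the deposited table.

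**Figure D1:**
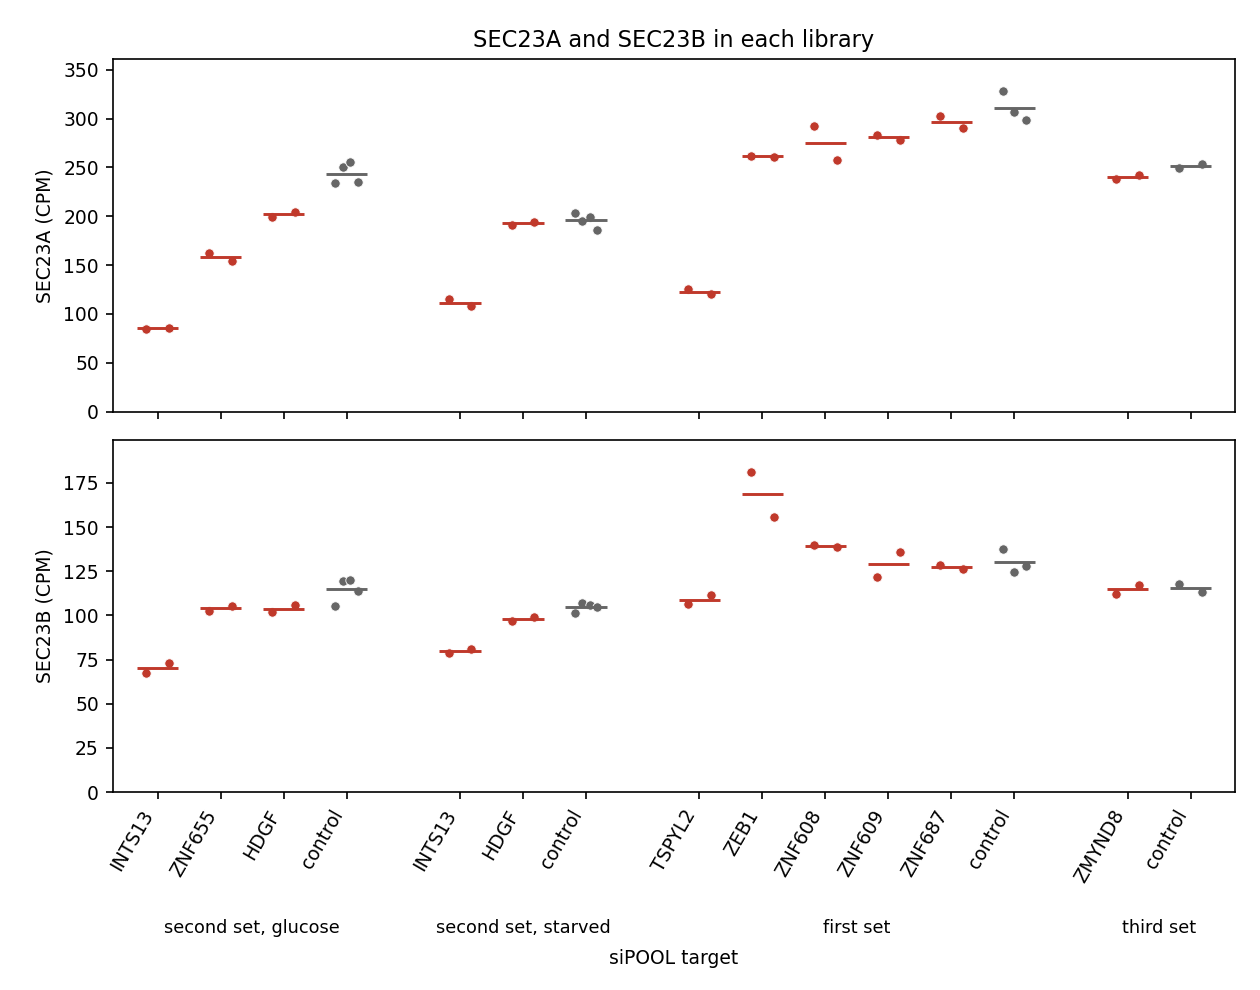
SEC23A and SEC23B levels (CPM, linear axes from 0) in each library (points) with group means (lines), depletions in red and controls in grey, by set. SEC23A sits at 84.9 and 85.4 CPM after INTS13 depletion and at 125 and 120.3 CPM after TSPYL2 depletion, below every other library except those of starved INTS13-depleted cells.

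SEC23B (chr20:18507520-18561415, plus strand), the paralog of SEC23A, fell in the same libraries with a smaller log2 fold change, and the difference between the paralogs was not tested. It had 67.6 and 73.1 CPM in INTS13-depleted cells, against 105, 119.5, 119.8 and 114 CPM in control cells, with no overlap. The log2 fold change was -0.71 ± 0.08 (edgeR adjusted p = 3.29e-07 over 19275 genes). SAR1A (chr10:70147289-70170523, minus strand), the GTPase that starts coat assembly, had 114 and 119.7 CPM in INTS13-depleted cells, against 189, 221, 232 and 213 CPM in control cells. It too was lower in both depleted libraries than in any control library, with a log2 fold change of -0.87 ± 0.12 (edgeR adjusted p = 1.25e-05). These calls of SEC23B and SAR1A held in each of 11 alternative settings.

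SEC13 of the outer coat (chr3:10293131-10321112, minus strand) fell slightly, with 138 and 139 CPM in INTS13-depleted cells, against 169, 170.4, 171 and 171 CPM in control cells (log2 -0.29 ± 0.08, edgeR adjusted p = 0.0111). Its groups did not overlap, but the call was lost without INTS13 library 3 (adjusted p = 0.0967), without INTS13 library 4 (0.0774) and with no filter on low counts (0.156). The cargo-binding SEC24 genes did not pass. SEC24A had 75.0 and 77.9 CPM in INTS13-depleted cells, against 57.6 to 63.0 CPM in control cells (log2 0.34 ± 0.13, edgeR adjusted p = 0.0916). SEC24B had 71.2 and 70.2 CPM, against 57.4 to 62.3 CPM (log2 0.25 ± 0.10, edgeR adjusted p = 0.115). For both genes the depleted libraries lay above all control libraries, and both passed in a fit of second-set libraries alone (edgeR adjusted p = 0.00144 and 0.00512). SEC24C (log2 -0.12 ± 0.15), SEC24D (0.21 ± 0.13), SAR1B (-0.02 ± 0.09) and SEC31A (-0.04 ± 0.12) had libraries that overlapped with the controls.

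In all, 4 of the 10 members fell, 0 rose and 6 did not pass after INTS13 depletion. Among all genes 12.8% were called, 6.23% lower. The comparison is one that chose SEC23A, and nothing is read from that contrast of shares. The median log2 fold change was -0.08 over the members and 0.01 over all genes. These are RNA levels of whole cultures, in which fewer cells of a type and less RNA per cell cannot be told apart.

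In starved cells, whose libraries had no part in choosing SEC23A, INTS13 depletion lowered SEC23A again. It had 115 and 108 CPM in INTS13-depleted starved cells, against 203, 195, 199 and 186 CPM in control starved cells. The groups did not overlap. The log2 fold change was -0.81 ± 0.07 (edgeR adjusted p = 2.69e-08), which leaves 56.9% of control, and the call held in each of 11 alternative settings. By p-value SEC23A ranked 2 among the 296 genes called lower, and by log2 fold change 37. SEC23B had 78.6 and 80.9 CPM in INTS13-depleted starved cells, against 101, 107, 106 and 105 CPM in control starved cells, again without overlap (log2 -0.39 ± 0.07, edgeR adjusted p = 0.00193). That call was lost without starved INTS13 library 3 (adjusted p = 0.088) and with no filter on low counts (0.0846).

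SAR1A had 117 and 121 CPM in INTS13-depleted starved cells, against 149 to 164 CPM in control starved cells. It did not overlap and missed the threshold (log2 -0.40 ± 0.12, edgeR adjusted p = 0.0513), and passed in second-set libraries alone (0.00025). SEC13 had a log2 fold change of -0.23 ± 0.08 (edgeR adjusted p = 0.103). Thus 2 of 10 members fell, 0 rose and 8 did not pass, where 3.86% of all genes were called and 1.54% lower. The median log2 fold change was -0.07 over the members and -0.002 over all genes. Set against HDGF depletion in starved cells (191 and 194 CPM) in place of the control, INTS13 depletion also lowered SEC23A (log2 -0.79 ± 0.08, edgeR adjusted p = 8.64e-07), and 1 of 10 members was called where 1.98% of all genes were, 0.654% lower.

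**Figure D2:**
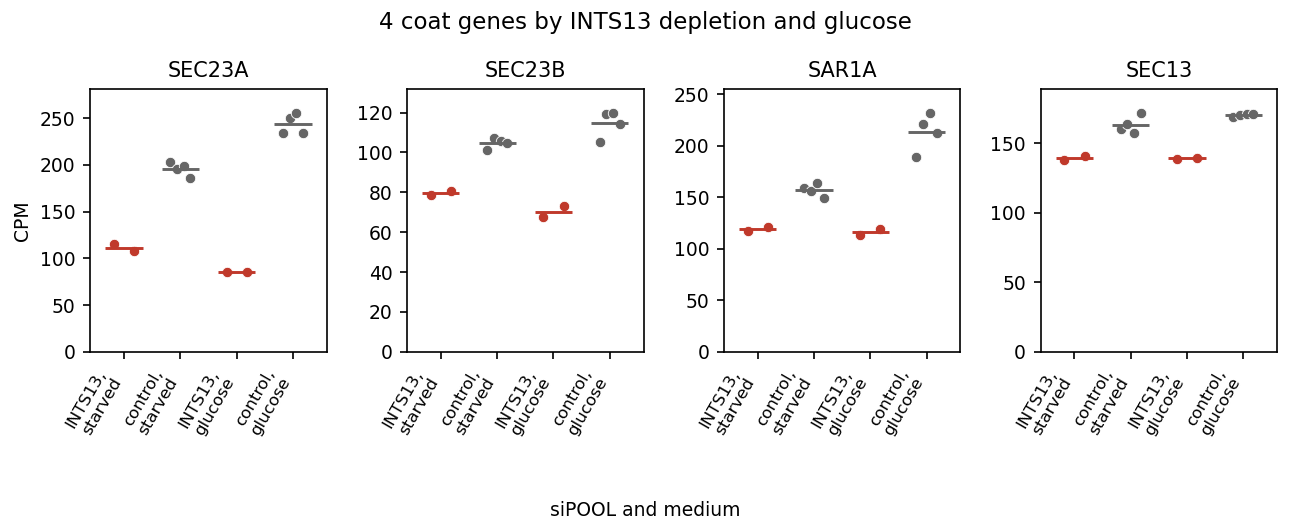
Levels (CPM, linear axes from 0) of SEC23A, SEC23B, SAR1A and SEC13 in each second-set library (points) with group means (lines), INTS13 depletion in red and control siPOOL in grey, starved and with glucose. SEC23A is lower after INTS13 depletion in both media, at 115 and 108 CPM in starved cells and 84.9 and 85.4 CPM with glucose.

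Glucose starvation lowered SEC23A in control cells, while in INTS13-depleted cells its level was higher when starved. In control cells it had 203, 195, 199 and 186 CPM when starved, against 234, 251, 256 and 235 CPM with glucose, with no overlap (log2 -0.32 ± 0.06, edgeR adjusted p = 0.000235). That call held in each of 13 alternative settings, but the 4 libraries with glucose are the controls of the comparison that chose SEC23A. In INTS13-depleted cells it had 115 and 108 CPM when starved, against 84.9 and 85.4 CPM with glucose (log2 0.39 ± 0.08). The interaction of INTS13 depletion with starvation was 0.70 ± 0.10 on the log2 scale. The INTS13 libraries with glucose chose SEC23A for its low level there, which by itself raises both values, so neither contrast that uses them has a p-value. SEC23A was the 1 of 10 members called for this interaction, where 0.0156% of all genes, 3 in number, were called, and nothing is read from that count. Over all genes 307 (1.64%) were called in second-set libraries alone, 45 (0.233%) by DESeq2 and 18 (0.0934%) with the replicate block. The call of SEC23A was lost without starved INTS13 library 3 and with no filter on low counts. In HDGF-depleted cells SEC23A had 191 and 194 CPM when starved, against 199.7 and 204 CPM with glucose (log2 -0.07 ± 0.08, edgeR adjusted p = 0.752), and the interaction of HDGF depletion with starvation was 0.25 ± 0.10 (edgeR adjusted p = 0.922). That interaction was called in 0 of 10 members and 0.0% of all genes by edgeR, with 1 member at an unadjusted p under 0.05 and 0 by DESeq2.

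Starvation of control cells lowered 5 of the 10 members and raised 0, where 16.8% of all genes were called and 8.05% lower. SAR1A had 149 to 164 CPM in starved cells, against 189 to 232 CPM with glucose (log2 -0.44 ± 0.09, edgeR adjusted p = 0.00149). SAR1B, the paralog that enterocytes need to export chylomicrons, had 78.6 to 83.7 CPM in starved cells, against 102 to 117 CPM with glucose (log2 -0.41 ± 0.07, edgeR adjusted p = 0.000277). SEC24D had 28.8 to 33.5 CPM in starved cells, against 38.0 to 48.0 CPM with glucose (log2 -0.46 ± 0.11, edgeR adjusted p = 0.00451). None of these 3 genes overlapped between media. SEC31A, the partner of SEC13 in the cage, had a log2 fold change of -0.31 ± 0.10 (edgeR adjusted p = 0.0282), a call lost without control library 3b or 4a or starved control library 3b or 4b (adjusted p 0.0658 to 0.104). The median log2 fold change was -0.30 over the members, against 0.005 over all genes, and all 10 values were below 0.

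None of the 5 members that starvation lowered in control cells was called lower by edgeR in depleted cells, and none of the interactions of members other than SEC23A passed. The comparisons in depleted cells have 2 libraries against 2, and that in control cells 4 against 4, so fewer calls do not by themselves show a smaller change. After INTS13 depletion 1 of 10 members was called for starvation, SEC23A, which was higher (1.32% of all genes, 0.856% higher) and lost its call when any 1 of the 4 libraries was left out, and after HDGF depletion 0 of 10 (3.54% of all genes, with 3 members at an unadjusted p under 0.05 and 1 called by DESeq2), with median log2 fold changes of -0.21 and -0.23 over the members. SEC24D had 36.3 and 34.8 CPM in starved INTS13-depleted cells, against 45.5 and 53.9 CPM with glucose (log2 -0.48 ± 0.15, edgeR adjusted p = 0.124). It had 31.5 and 33.3 CPM in starved HDGF-depleted cells, against 45.7 and 47.2 CPM with glucose (log2 -0.52 ± 0.16, edgeR adjusted p = 0.0603). Neither pair of groups overlapped, and the changes were as large as in control cells. SAR1A differed little with starvation after INTS13 depletion (log2 0.03 ± 0.13), and its interaction of 0.47 ± 0.16 did not pass (edgeR adjusted p = 0.613).

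Against the second-set controls, ZNF655 depletion lowered SEC23A and both SAR1 genes. INTS13 transcripts were lower there too (log2 -0.36 ± 0.11, edgeR adjusted p = 0.0308), and any part of this was not tested. SEC23A had 162 and 155 CPM in ZNF655-depleted cells, against 234, 251, 256 and 235 CPM in control cells, with no overlap. The log2 fold change was -0.62 ± 0.07 (edgeR adjusted p = 1.05e-06), and the call held in each of 12 alternative settings. Against the controls labelled for ZMYND8, which share no library with the comparisons that chose SEC23A, it was -0.67 ± 0.08 (edgeR adjusted p = 6.93e-06). SAR1A had 119.8 and 125 CPM in ZNF655-depleted cells, against 189 to 232 CPM in control cells (log2 -0.80 ± 0.12, edgeR adjusted p = 5.09e-05). SAR1B had 83.2 and 94.1 CPM, against 102 to 117 CPM (log2 -0.29 ± 0.09, edgeR adjusted p = 0.0334). Against the controls labelled for ZMYND8, SAR1A had -0.41 ± 0.13 (edgeR adjusted p = 0.0529) and SAR1B turned to 0.13 ± 0.10 (edgeR adjusted p = 0.455). The SAR1B call was also lost without control library 3b (adjusted p = 0.0973) or 4a (0.0833), without ZNF655 library 3 (0.33) and with no filter on low counts (0.176).

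SEC23B had 103 and 105 CPM after ZNF655 depletion, against 105 to 119.8 CPM in control cells (log2 -0.14 ± 0.07, edgeR adjusted p = 0.241), the depleted libraries lying just below the lowest control. Of 10 members 3 fell, 0 rose and 7 did not pass, where 11.5% of all genes were called and 4.88% lower, and the median log2 fold change was -0.13 over the members and 0.016 over all genes. HDGF depletion lowered 1 of 10 members, where 4.49% of all genes were called and 2.6% lower. SEC23A had 199.7 and 204 CPM in HDGF-depleted cells, against 234 to 256 CPM in control cells (log2 -0.27 ± 0.07, edgeR adjusted p = 0.019). These controls are those of the comparison that chose SEC23A. The call was lost without HDGF library 3 (adjusted p = 0.202), HDGF library 4 (0.121), control library 3b (0.0512) or control library 4a (0.0552), and with no filter on low counts (0.373). In starved cells HDGF depletion changed 0 of 10 members by edgeR and by DESeq2 (0.659% of all genes, 2 members at an unadjusted p under 0.05), and SEC23A had 191 and 194 CPM, against 186 to 203 CPM (log2 -0.02 ± 0.07). The INTS13, ZNF655 and HDGF comparisons with glucose share their 4 controls.

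**Figure D3:**
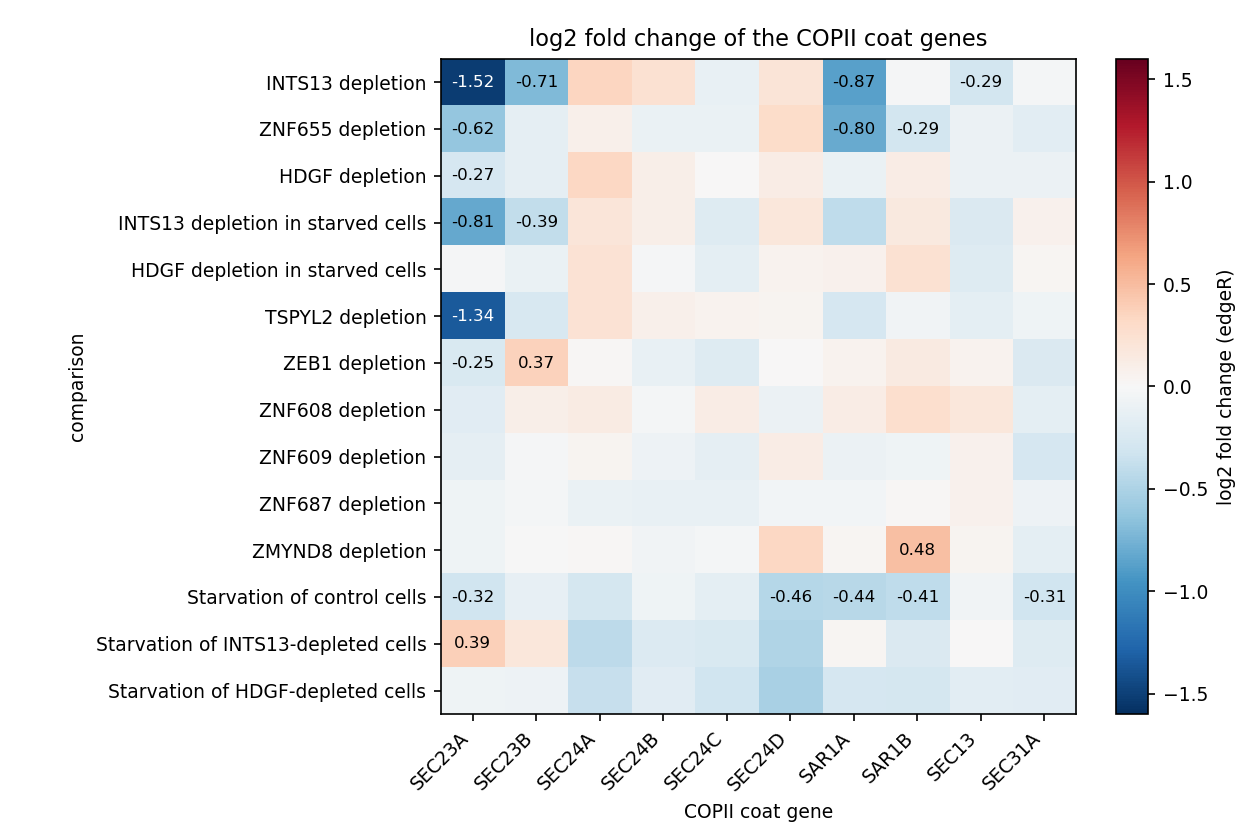
Log2 fold changes of the 10 coat genes (columns) in 14 comparisons (rows), blue lower and red higher, with the value printed where the edgeR adjusted p was under 0.05. The values of SEC23A after INTS13 depletion (-1.52), after TSPYL2 depletion (-1.34) and for starvation of INTS13-depleted cells (0.39) rest on libraries that chose it and are a description.

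In the first set, TSPYL2 depletion left SEC23A at 125 and 120.3 CPM, against 328, 306 and 298 CPM in control cells. TSPYL2 is a nuclear relative of nucleosome assembly proteins. Both depleted libraries lay below every control library, and the log2 fold change was -1.34 ± 0.07, which leaves 39.6% of control. Against the mean of the other 4 depletions of the first set it was -1.18 ± 0.07. In that contrast 3 of 10 members, SEC23A among them, were called lower where 19.5% of all genes were called and 8.75% lower. It uses the TSPYL2 libraries that chose SEC23A, and nothing is read from this count. Against the control, SEC23A was the 1 member called, where 2.22% of all genes were called and 1.08% lower, a contrast that chose the gene, and the median log2 fold change was -0.06 over the members and -0.007 over all genes.

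SEC23B had 106 and 111 CPM in TSPYL2-depleted cells, against 138, 125 and 128 CPM in control cells. It did not overlap and missed the threshold (log2 -0.26 ± 0.08, edgeR adjusted p = 0.0761). With replicate numbers as a block it passed over all libraries (edgeR adjusted p = 0.0143) and not over the first set alone (0.168). Against the other 4 depletions it fell (log2 -0.36 ± 0.07, edgeR adjusted p = 0.00106), a call kept with the block (0.016 in the first set alone) and lost without the block in first-set libraries alone (0.147). SAR1A had 164 and 162 CPM in TSPYL2-depleted cells, against 242, 181 and 168 CPM in control cells (log2 -0.27 ± 0.12, edgeR adjusted p = 0.249), and passed over all libraries with the block (0.0396). SEC13 fell against the other 4 depletions (log2 -0.25 ± 0.07, edgeR adjusted p = 0.0167), a call lost with the block in the first set alone (0.0726), in first-set libraries alone (0.289), with no filter on low counts (0.191) and without TSPYL2 library 2 (0.333). SAR1B differed little from the controls (log2 -0.05 ± 0.09). The SEC24 genes and SEC31A overlapped with the controls, with log2 fold changes of -0.07 to 0.24, and the TSPYL2 library numbered 1 was the lower of the pair in all 5 of these genes. That overlap sets libraries of unlike number together. Within each number of the descriptions, SEC24A, SEC24C and SEC24D lay above the controls, SEC24A at 42.1 against 38.4 CPM (number 1) and 65.4 against 49.2 and 49.0 CPM (number 2). SEC24B and SEC31A lay below the control for number 1 and above the controls for number 2. Without the first-set libraries numbered 1, which leaves 1 TSPYL2 library, the log2 fold change against the controls was 0.40 for SEC24A and -0.28 for SEC13.

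ZEB1 depletion changed the SEC23 paralogs in opposite directions. ZEB1 is a repressor that binds E-boxes. SEC23B had 181 and 156 CPM in ZEB1-depleted cells, against 138, 125 and 128 CPM in control cells, with no overlap (log2 0.37 ± 0.08, edgeR adjusted p = 0.00504). SEC23A had 262 and 261 CPM, against 328, 306 and 298 CPM, also without overlap (log2 -0.25 ± 0.07, edgeR adjusted p = 0.0493). Both calls were lost with the block in first-set libraries alone (edgeR adjusted p = 0.0771 for SEC23B and 0.138 for SEC23A) and without ZEB1 library 1 (0.294 and 0.364). The SEC23A call held in 3 of 12 alternative settings, and its controls are those of the TSPYL2 comparison that chose the gene. Of 10 members 1 rose and 1 fell, where 3.77% of all genes were called, 1.78% higher and 1.99% lower.

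ZNF608, ZNF609 and ZNF687 depletion changed 0 of 10 members each by edgeR and by DESeq2, where 2.76%, 0.571% and 0.254% of all genes were called by edgeR. At an unadjusted p under 0.05 were 3, 1 and 0 members. With the replicate block over all libraries 1 member was called after ZNF608 depletion, SAR1B, which was higher (edgeR adjusted p = 0.0393, and 0.208 with the block in the first set alone). A fit without the first-set libraries numbered 1 leaves 1 library per depletion. In it the log2 fold changes after ZNF608 depletion were -0.23 for SEC23A and 0.32 for SAR1B. After ZNF609 depletion SEC31A had -0.29 in that fit. SEC23A had 293 and 257 CPM after ZNF608 depletion (log2 -0.18 ± 0.07, edgeR adjusted p = 0.223), 283 and 278 CPM after ZNF609 depletion (-0.15 ± 0.07, adjusted p = 0.516) and 302 and 289.9 CPM after ZNF687 depletion (-0.07 ± 0.07, adjusted p = 0.792), all against the controls of the TSPYL2 comparison. After ZNF608 and ZNF609 depletion the libraries lay below the controls, and after ZNF687 depletion they overlapped. ZMYND8 depletion left SEC23A at 238 and 242 CPM, against 249 and 253 CPM in its own controls (log2 -0.07 ± 0.08, edgeR adjusted p = 0.921). SAR1B rose there, with 113 and 113 CPM against 81.5 and 80.2 CPM (log2 0.48 ± 0.10, edgeR adjusted p = 0.0191), 1 of 10 members where 0.747% of all genes were called and 0.446% higher. That call was lost when any 1 of the 4 libraries was left out (adjusted p 0.177 to 0.313).

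The balance between paralogs differed between groups too. These shares rest on the levels given above and were not tested. SEC23A was chosen for its low level after INTS13 and TSPYL2 depletion, which by itself lowers its share and the SEC23 sum there. SEC23A made up 37.0 to 38.7% of the summed SEC23A and SEC23B level per kb after INTS13 depletion, against 50.8 to 52.7% in control cells. It made up 40.1 to 42.4% after INTS13 depletion in starved cells, against 47.1 to 50.1% in control starved cells. It made up 42.4 to 44.3% after ZNF655 depletion, and 35.1 to 37.2% after TSPYL2 depletion, against 54.0 to 55.2% in the first-set controls. After ZEB1 depletion it was 42.0 to 45.7%. In each of these 5 groups SEC23B was the larger share. By mean it was also the larger in starved control cells (51.6%) and in HDGF-depleted cells with glucose (50.5%) and starved (50.2%). The same held after ZNF608 depletion (50.2%). The summed SEC23 level was 26.0 ± 0.99 CPM per kb (n = 2) after INTS13 depletion, against 54.5 ± 2.71 CPM per kb (n = 4) in control cells. It was 39.2 ± 0.424 CPM per kb (n = 2) after TSPYL2 depletion, against 65.8 ± 3.23 CPM per kb (n = 3), and 68.9 ± 4.24 CPM per kb (n = 2) after ZEB1 depletion, where the sum overlapped with the same controls.

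SAR1A made up 62.5 to 63.4% of the summed SAR1A and SAR1B level per kb after INTS13 depletion, against 74.4 to 76.5% in control cells. It made up 67.5 to 69.2% after ZNF655 depletion, and 69.1 to 70.1% after ZMYND8 depletion, against 75.7 to 76.0% in the ZMYND8 controls. In starved control cells it was at 74.8 to 75.6%, while the summed SAR1 level was 30.3 ± 1.04 CPM per kb, against 41.0 ± 3.22 CPM per kb with glucose (n = 4 each), so both paralogs were lower in like measure. SEC24C made up 46.7 to 47.5% of the 4 SEC24 genes after INTS13 depletion, against 53.2 to 55.6% in control cells, and the SEC24 sum was 54.9 ± 1.98 CPM per kb, against 52.1 ± 2.15 CPM per kb, with overlap. The SEC23 sum was lower after INTS13 depletion where the SEC24 sum was not, but it holds the SEC23A values that chose the gene, and nothing is read from that contrast.

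**Figure D4:**
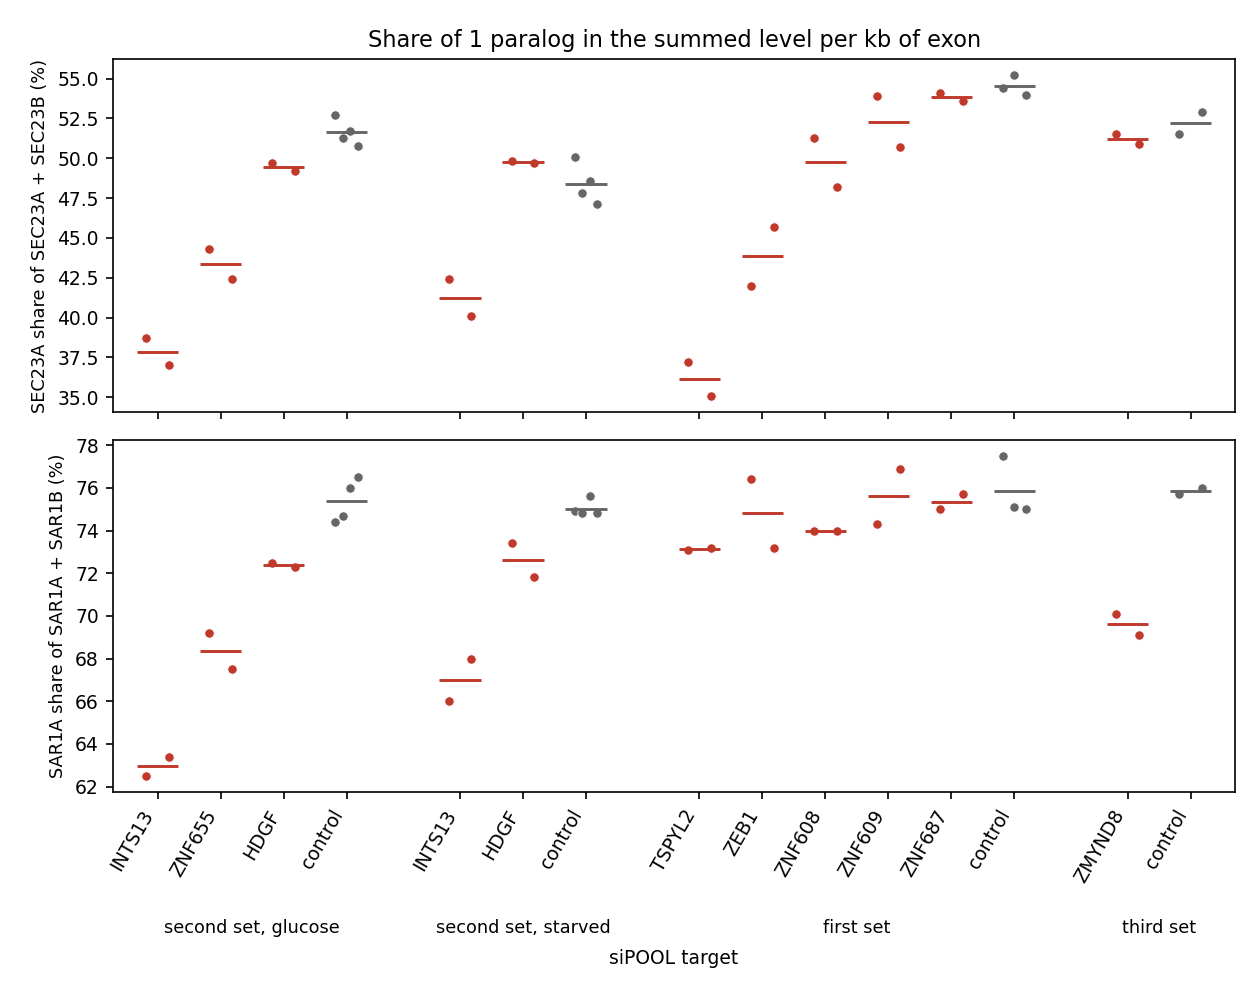
Share (%) of SEC23A in the summed SEC23 level per kb of exon (top) and of SAR1A in the summed SAR1 level (bottom) in each library (points) with group means (lines); the axes do not start at 0. SEC23A is at 37.0 to 38.7% after INTS13 depletion and 35.1 to 37.2% after TSPYL2 depletion, and SAR1A is lowest after INTS13 depletion, at 62.5 to 63.4%.

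Across the 15 groups, each centred on the mean of its set as log2 CPM, SEC23A moved most like SEC23B among the other members (Pearson r = 0.81), followed by SAR1A (0.79) and SEC13 (0.77). By Spearman rho SAR1A came first (0.75), then SEC13 (0.60) and SEC23B (0.52), so the order among members rests on the measure. SEC24B ran the other way (r = -0.62, rho = -0.23), as did SEC24A (r = -0.45, rho = -0.44), and SEC24A and SEC24B were alike (r = 0.74). Groups share controls, sets and the scaling, and INTS13 and TSPYL2 depletion weigh most, so these values describe the pattern and were not tested. Of 10824 protein-coding genes whose log2 CPM averaged 2 or more, those most like SEC23A by r included RCN2 (0.92), ALDOA (0.91), NELFB (0.91) and PPP1R35 (0.91). RCN2 encodes a calcium-binding protein of the ER, ALDOA a glycolytic aldolase and NELFB a subunit of a factor that pauses RNA polymerase II. SEC23B ranked 120, SAR1A 179 and SEC13 234. By Spearman rho none of these 4 genes was among the first 5.

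The genes that work around the coat were counted from lists chosen with results of these data known. Their counts stand beside the shares of all genes given above, for INTS13 depletion 12.8% called and 6.23% lower, and nothing is called particular to a list. After INTS13 depletion, of 9 tested regulators of ER exit sites 1 fell, KLHL12 (log2 -0.32 ± 0.08, edgeR adjusted p = 0.00658), the adaptor through which CUL3 ubiquitinates SEC31. Of 18 cargo receptors 2 fell, ERGIC1 (-0.48 ± 0.09, adjusted p = 0.000602) and LMAN1 (-0.25 ± 0.07, adjusted p = 0.021), the lectin that carries coagulation factors out of the ER. Of 16 SNAREs and tethers between ER and Golgi 1 fell, RAB1B (-0.37 ± 0.09, adjusted p = 0.0069). Of 12 genes of COPI, the coat of the return path, 0 were called by edgeR or DESeq2 (3 at an unadjusted p under 0.05), with a median log2 fold change of -0.16, against 0.01 over all genes. Of 18 clathrin coat and adaptor genes 1 rose, AP1S2 (0.77 ± 0.145, adjusted p = 0.000604), and 3 fell, and of 9 nuclear pore partners of SEC13 2 fell, NUP43 (-0.27 ± 0.07, adjusted p = 0.0161) and NUP133 (-0.20 ± 0.07, adjusted p = 0.0406). None of 4 GATOR2 genes passed in edgeR or DESeq2, and 0 had an unadjusted p under 0.05.

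KLHL12 (-0.33 ± 0.08, edgeR adjusted p = 0.0138), ERGIC1 (-0.52 ± 0.09, adjusted p = 0.000867) and RAB1B (-0.39 ± 0.09, adjusted p = 0.0111) also fell after INTS13 depletion in starved cells. MIA2, a relative of the collagen export receptor TANGO1, rose there (0.33 ± 0.09, adjusted p = 0.0431). After TSPYL2 depletion, where 2.22% of all genes were called, 1 of 12 COPI genes fell, COPB2 (-0.41 ± 0.08, edgeR adjusted p = 0.0102), and 0 of the 18 cargo receptors, 16 SNAREs and tethers or 9 exit site regulators passed in edgeR or DESeq2 (4, 3 and 2 at an unadjusted p under 0.05). Against the other 4 depletions of the first set, where 19.5% of all genes were called, TSPYL2 depletion lowered 4 COPI genes, 4 cargo receptors and 2 SNAREs and tethers, and of the exit site regulators it lowered PEF1 (-0.36 ± 0.09, edgeR adjusted p = 0.00939) and PREB (-0.24 ± 0.08, adjusted p = 0.048) and raised SEC16A (0.67 ± 0.21, adjusted p = 0.0273). After ZNF655 depletion, where 11.5% of all genes were called, 4 of 16 SNAREs and tethers fell, with YKT6 (-0.43 ± 0.10, edgeR adjusted p = 0.00731), RAB1A (-0.41 ± 0.09, adjusted p = 0.00192) and USO1 (-0.36 ± 0.08, adjusted p = 0.0029) the lowest, as did 2 of 12 COPI genes, ARF1 (-0.48 ± 0.08, adjusted p = 0.000391) and COPB1 (-0.28 ± 0.09, adjusted p = 0.0367). HDGF depletion lowered 1 of 18 cargo receptors, TMED10 (-0.80 ± 0.08, edgeR adjusted p = 3.61e-07).

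Starvation of control cells moved KLHL12 the other way from the coat (0.34 ± 0.06, edgeR adjusted p = 0.00033), while PREB, the exchange factor that loads SAR1 with GTP, fell (-0.26 ± 0.07, adjusted p = 0.0159), as did CUL3, the ligase scaffold that binds KLHL12 (-0.24 ± 0.06, adjusted p = 0.0109). Of 18 cargo receptors 3 rose and 2 fell, ERGIC1 among the first (0.33 ± 0.07, adjusted p = 0.00211) and LMAN1 among the others (-0.26 ± 0.06, adjusted p = 0.00237). Of 12 COPI genes 1 rose and 2 fell. Among all genes 16.8% were called there, 8.05% lower.

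Of 7 transcription factors known to act on secretory genes (CREB3, CREB3L1, CREB3L2, CREB3L4, XBP1, ATF6 and ATF6B) 0 were called after INTS13 depletion, with or without glucose, in edgeR or DESeq2 (0 at an unadjusted p under 0.05), and 1 rose after TSPYL2 depletion, CREB3L2 (log2 0.64 ± 0.16, edgeR adjusted p = 0.0372), whose protein in mouse cartilage is known to activate Sec23a. Against the other 4 depletions of the first set 3 of the 7 were called after TSPYL2 depletion: CREB3L2 rose (0.78 ± 0.135, edgeR adjusted p = 0.000531), and CREB3 (-0.46 ± 0.12, adjusted p = 0.00918) and XBP1 (-0.38 ± 0.12, adjusted p = 0.0294) fell. CREB3L2 also rose after ZNF655 depletion (0.52 ± 0.15, edgeR adjusted p = 0.0257), and CREB3L4 rose with starvation of control cells (0.59 ± 0.18, adjusted p = 0.0237). SEC23A was lower after both TSPYL2 and ZNF655 depletion, as given above, and any link with CREB3L2 was not tested. XBP1 had a log2 fold change of 0.01 ± 0.13 after INTS13 depletion (edgeR adjusted p = 0.986).

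Neighbouring genes bear on which reads were counted. The library kit marks strand, and the strand setting of the counting is not given in the sources used here. GEMIN2 starts 4577 bases from the start that the deposited table gives SEC23A, on the other strand. The RefSeq start of SEC23A used for its promoter lies inside the gene and further from GEMIN2. GEMIN2 had 42.7 ± 0.00655 CPM (n = 2) after INTS13 depletion, against 44.8 ± 2.96 CPM (n = 4) in control cells (log2 -0.07 ± 0.19, edgeR adjusted p = 0.878). SEC23A-AS1, the antisense gene within SEC23A, was at 0.258 CPM in the median library. SEC23A and SEC23B transcripts share no run of 100 bases with each other, so reads of that length could not be split between them without mismatches. SAR1B and SEC24A start 486 bases apart on opposite strands and overlap, and 288 runs of 100 bases are common to both in reverse orientation. Of SEC24C, 33.33% of runs are shared in reverse orientation with AC022400.8, which had 10.1 CPM in the median library. The runs come from annotated transcripts apart from the deposited table. In that table AC022400.8 (chr10:73742995-73744230) ends before SEC24C starts at base 73744372. Its 10.1 CPM thus belong to a gene model unlike the one that shares the runs. Of SEC31A, 4.34% are shared in the same orientation with THAP9-AS1, which fell after INTS13 depletion (log2 -0.50 ± 0.14, edgeR adjusted p = 0.017). Values of SEC24C and SEC31A may hold reads of these neighbours.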

How the data were processed

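Total RNA of HEK293T cells was sequenced as 100-base single-end reads from stranded libraries depleted of ribosomal RNA, per the labels' protocols. The deposited table holds whole-number read counts for 60665 genes, not normalized by the authors and named as made before removal of duplicate reads, with hg38 positions and exon lengths. FastQC, cutadapt, STAR and hg38 are named in the submitters' processing notes, without versions. The counting tool, annotation release and strand setting are not given in the sources used here, so reads of genes overlapping on opposite strands may be mixed.

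The counts were tested with edgeR 4.0.16 (R 4.3.3, limma 3.58.1): genes passing filterByExpr (19275), TMM scaling and 1 quasi-likelihood fit of 15 group means over 35 libraries without a block (20 residual degrees of freedom). Tests were two-sided, with Benjamini-Hochberg adjustment over all tested genes and a threshold of 0.05. The SE of a log2 fold change is its size divided by the square root of the F statistic. CPM were computed on TMM-scaled library sizes. The steps were tested on simulated data. The members and the lists of other genes were chosen with earlier results of these data known. Named were all members, their neighbours within 10 kb, the 5 genes most like SEC23A, up to 3 called genes of each list per comparison described, and the targets. Values for neighbours with no bearing on a member are not printed, and 1 of the 5 genes most like SEC23A is not reported here.

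Alternatives were DESeq2 1.42.0 size factors, its Wald test, no filter on low counts, libraries of 1 set alone, each library left out, the replicate number as a block, the first set without its libraries numbered 1, and ZMYND8 controls for ZNF655. Same-numbered libraries of the first set deviated together in 15 of 15 pairs of groups (correlation 0.121 to 0.672), so the numbers pair them. The pairing uses the numbers in the sample descriptions, which differ from the titles for the first-set controls. In the second set 0 of 21 pairs passed 0.1.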

Additional observations from a re-analysis of the deposited data

Results flagged for a closer look

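The fitted effect of INTS13 depletion on SEC23A was larger with glucose, in the libraries whose low level chose the gene, than in starved cells. The log2 fold change was -0.81 ± 0.07 in starved cells and -1.52 ± 0.07 with glucose, and the interaction fitted across all genes was 0.70 ± 0.10. Choosing SEC23A for its low level with glucose by itself raises this value, so it is a description and carries no p-value. The call was lost without starved INTS13 library 3 and with no filter on low counts. Among groups of 4 libraries, 0 of 20 sets of member values held a library that stood apart by Dixon's criterion.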

How the results depend on the processing

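Of 25 calls of members, 12 held in every alternative. Over all 309 alternatives of these calls, 259 kept direction and threshold, 49 kept the direction only, and 1 reversed: SAR1B after ZNF655 depletion, at 0.13 against the ZMYND8 controls. Numbers of members called that moved by over 1.5 times follow, with the value of the fit described above last. Percentages in brackets are the shares of all genes called in the same alternative. Those for no filter, DESeq2 size factors and the block in the first set alone are not printed. With the replicate block over all libraries, TSPYL2 depletion had 3 against 1 (18.3%) and ZNF608 1 against 0 (8.65%). Under that block, starvation of INTS13-depleted cells had 3 against 1 (5.58%) and starvation of HDGF-depleted cells 3 against 0 (9.37%). INTS13 in starved cells had 4 against 2 (9.42%) and INTS13 against HDGF 3 against 1 (5.27%). With the block in the first set alone, ZEB1 had 0 against 2. Within 1 set alone, HDGF had 2 against 1 (16.0%), ZMYND8 2 against 1 (9.42%) and ZEB1 0 against 2 (0.148%). There, starvation of control cells had 8 against 5 (34.7%), of INTS13-depleted cells 4 against 1 (12.7%) and of HDGF-depleted cells 5 against 0 (17.0%). INTS13 in starved cells had 5 against 2 (16.3%), HDGF in starved cells 2 against 0 (7.82%) and the INTS13 interaction 3 against 1 (1.64%). INTS13 against HDGF had 3 against 1 (9.92%), and TSPYL2 against the other 4 depletions 1 against 3 (0.00529%). Without first-set libraries numbered 1, 1 library is left in each depletion of that set, and those counts are not given. With no filter, HDGF, ZMYND8, starvation of INTS13-depleted cells and the INTS13 interaction had 0 against 1, ZEB1 0 against 2, starvation of HDGF-depleted cells 1 against 0, and INTS13 in starved cells 1 against 2. DESeq2 size factors gave ZEB1 1 against 2. The DESeq2 Wald test gave TSPYL2 2 against 1 (4.45%) and starvation of HDGF-depleted cells 1 against 0 (5.17%). It gave INTS13 in starved cells 4 against 2 (5.39%) and INTS13 against HDGF 3 against 1 (2.75%). Smaller moves include INTS13 depletion, with 6 against 4 under the block (22.4%) and in its set alone (30.1%), and 3 with no filter. TSPYL2 against the other 4 depletions had 4 against 3 by DESeq2 (22.5%). The cause was not tested.

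Leaving out 1 library gave 3 to 4 members for INTS13, 1 to 2 for TSPYL2, 0 to 1 for HDGF, 2 to 3 for ZNF655, 0 for ZMYND8, 0 to 4 for ZEB1, 0 to 1 for ZNF608, 4 to 5 for starvation of control cells, 0 for starvation of INTS13-depleted cells, 1 to 2 for INTS13 in starved cells, 0 to 1 for the INTS13 interaction and 2 to 5 for TSPYL2 against the other 4 depletions. Over all genes the block called 4324 after INTS13 depletion, against 2459 without it, 3533 after TSPYL2 depletion, against 428, 4028 after ZNF655 depletion, against 2208, and 1815 after INTS13 depletion in starved cells, against 744. Libraries of 1 set alone gave 5624 for INTS13, 5513 for ZNF655, 3047 for INTS13 in starved cells and 1 for TSPYL2. Only the first set showed pairing by number. Precision is limited by 2 libraries in most groups and by the annotated exons behind levels per kb.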
